A study of Rattus norvegicus with 23 samples.

Results

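C1qb, Lyz2 and Cd53 are genes of macrophages and other leukocytes. Every probe that the platform annotation assigns to them was taken, which gave 1 probe for each gene, 3 of the 4153 genes with a symbol on the array. The values are ratios of lesioned over intact dorsal root ganglia (DRG). Each of 23 two-color arrays held Cy5-labeled RNA from L4 and L5 ganglia of Long-Evans rats whose sciatic nerve had been cut at postnatal day 20 to 24, and Cy3-labeled RNA from intact ganglia. Lesioned ganglia were taken 4, 8, 12, 18, 24, 48, 148 or 296 h after the cut, with 3 arrays at each time and 2 at 296 h. For replicate 2 of the latest group the title reads 296 h but the label for time reads 294 h. The labels also describe the material as cultured DRG cells and the labeling text speaks of cAMP cultures, whereas the surgical text describes ganglia. Neither the animals behind replicate arrays nor the source of the intact RNA is given, so the p-values cover the spread between these samples alone, which may be technical.

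C1qb encodes a chain of C1q, the recognition molecule that starts the classical complement pathway, and macrophages and microglia are its main source in nervous tissue. Lyz2 encodes lysozyme, an enzyme that cuts bacterial cell walls and is made by macrophages and granulocytes. Cd53 encodes a membrane protein of the tetraspanin family that is found on most leukocytes. Macrophages live in sensory ganglia, and more of them are known to gather around the cell bodies of neurons after their peripheral nerve is cut. In bulk RNA, a higher share of such cells and more RNA per cell cannot be told apart.

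The probe for C1qb was 33A03 (gene 29687), that for Lyz2 was 48H07 (gene 25211) and that for Cd53 was 10A04 (gene 24251). In RefSeq annotation of build GRCr8, C1qb lies at chr5:154402276-154407827, Lyz2 at chr7:54792715-54798060 and Cd53 at chr2:197040369-197087925, all on the minus strand and all protein coding. Lyz2 has a close relative beside it, Lyc2, and whether the Lyz2 probe also reads that transcript was not tested. The bases before the start used for C1qb and Lyz2 are shown because both genes were highest at 148 h in the values that follow. Capitals mark the PU box, GAGGAA or its reverse complement TTCCTC, which is the core of sites bound by PU.1, a transcription factor of macrophages. The motif was chosen after the sequences had been seen. The sequences are the 250 bases before the start used for each promoter, on the strand of the gene, at chr5:154407828-154408077 and chr7:54798012-54798261 of GRCr8. For Lyz2 that start, 54798011, lies inside the gene span given above. The last bases of its window, with the marked PU box, are thus within that span and not upstream of it. The Cd53 window, from a start at 197087896, also overlaps the span of its gene.
C1qb: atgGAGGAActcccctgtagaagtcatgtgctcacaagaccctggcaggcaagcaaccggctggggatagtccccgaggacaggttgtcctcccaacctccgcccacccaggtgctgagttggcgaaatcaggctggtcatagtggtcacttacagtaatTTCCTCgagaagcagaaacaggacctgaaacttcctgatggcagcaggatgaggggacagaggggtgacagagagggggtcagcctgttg
Lyz2: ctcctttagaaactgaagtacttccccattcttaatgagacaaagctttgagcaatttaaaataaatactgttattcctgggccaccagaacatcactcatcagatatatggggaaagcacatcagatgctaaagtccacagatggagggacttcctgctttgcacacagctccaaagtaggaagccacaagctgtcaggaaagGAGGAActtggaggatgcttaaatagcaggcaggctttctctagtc

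The C1qb window held the PU box 2 times and the Lyz2 window 1 time. The same window of Cd53 also held it 1 time. Of 33469 rat promoters of this length, 23.3% held it on either strand, so such a match is frequent. Neither an AP-1 site (TGACTCA or TGAGTCA) nor a TATA box (TATAAA or TTTATA) was in any of the 3 windows, and these were in 4.05% and 12.9% of all windows. The motifs do not overlap one another. A match describes the letters only.

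Arrays fell into 17 that measured 4945 to 5011 of the 5088 probes (full arrays) and 6 that measured 2063 to 4353 (sparse arrays). Every array at 148 h was sparse, as were replicates 2 and 3 at 48 h and replicate 2 at 296 h. The log2 ratios of all probes had a standard deviation (SD) of 0.506 to 0.913 on full arrays and of 1.22 to 1.61 on sparse arrays. Spearman correlations between arrays ran from 0.055 to 0.498, so no array was a copy of another. Signal intensities were not used here, so the number of arrays limits the precision. The direction of the ratio was taken from the dyes. Atf3, a transcription factor of injured neurons, averaged log2 3.70 at 48 h in that direction, and Gap43, a growth cone protein, averaged 1.19. C1qb and Lyz2 were measured on 22 arrays each and lacked a value only on 148 h replicate 1, the sparsest array. Cd53 was measured on 17 arrays, with no value at 148 h, on 8 h replicate 1, on 48 h replicate 3 and on 296 h replicate 2. At every other array and time the values of the 3 genes can be set beside one another. All values below are log2 ratios of lesioned over intact ganglia unless a fold is named.

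C1qb rose in lesioned ganglia at 48 and 148 h, to 3.19 and 11.6 times the intact ganglia. Its ratios at 48 h were 2.43, 1.58 and 1.02, and at 148 h they were 2.98 and 4.08. All 5 of these arrays lay above 0. The mean at 48 h was 1.68 ± 0.71 (SD, n = 3; standard error of the fit (SE) 0.33; limma, Benjamini-Hochberg adjusted p = 0.00296). At 148 h the mean was 3.53 ± 0.78 (SD, n = 2; SE 0.41; limma adjusted p = 1.2e-05). On the single full array at 48 h the ratio was higher than on both sparse arrays of that time. When arrays were scaled to an equal spread, C1qb at 48 h was 1.13 and no longer passed (limma adjusted p = 0.0836), and at 148 h it was 2.12 and passed (adjusted p = 0.00546). With noisier arrays given less weight, C1qb was 1.86 at 48 h and 3.51 at 148 h. Both passed, with larger p-values than in the main fit (limma adjusted p = 0.0437 and 0.00318).

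At 296 h the C1qb ratios were 0.90 and 1.37, a mean of 1.14 ± 0.34 (SD, n = 2) or 2.20-fold, which did not pass (limma adjusted p = 0.0903). The difference of 296 h minus 148 h was -2.40 (95% confidence interval -3.61 to -1.18; limma adjusted p = 0.0417). That call did not hold under 3 of the other settings and in 16 of 23 fits that left out 1 array. With arrays scaled to an equal spread the difference was -1.16 (adjusted p = 0.781), and with array weights, which give noisier arrays less say, it was -2.37 (adjusted p = 0.653).

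Within the first day no C1qb mean passed the threshold. The ratios were 0.45, 0.63 and -0.45 at 4 h, -0.11, -0.61 and 0.37 at 8 h, and 0.55, 0.08 and 0.10 at 12 h. They were 0.80, -0.31 and 0.49 at 18 h, and 1.77, 0.47 and 0.30 at 24 h. Thus arrays on both sides of 0 were found at 4, 8 and 18 h, and 11 of the 15 arrays up to 24 h lay above 0. The 24 h mean of 0.85 ± 0.80 (SD, n = 3; limma adjusted p = 0.241) came largely from replicate 1, without which it was 0.39. Means at the other times of the first day lay between -0.12 and 0.33, with confidence intervals that reached from -0.82 to 1.03.

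**Figure D1:**
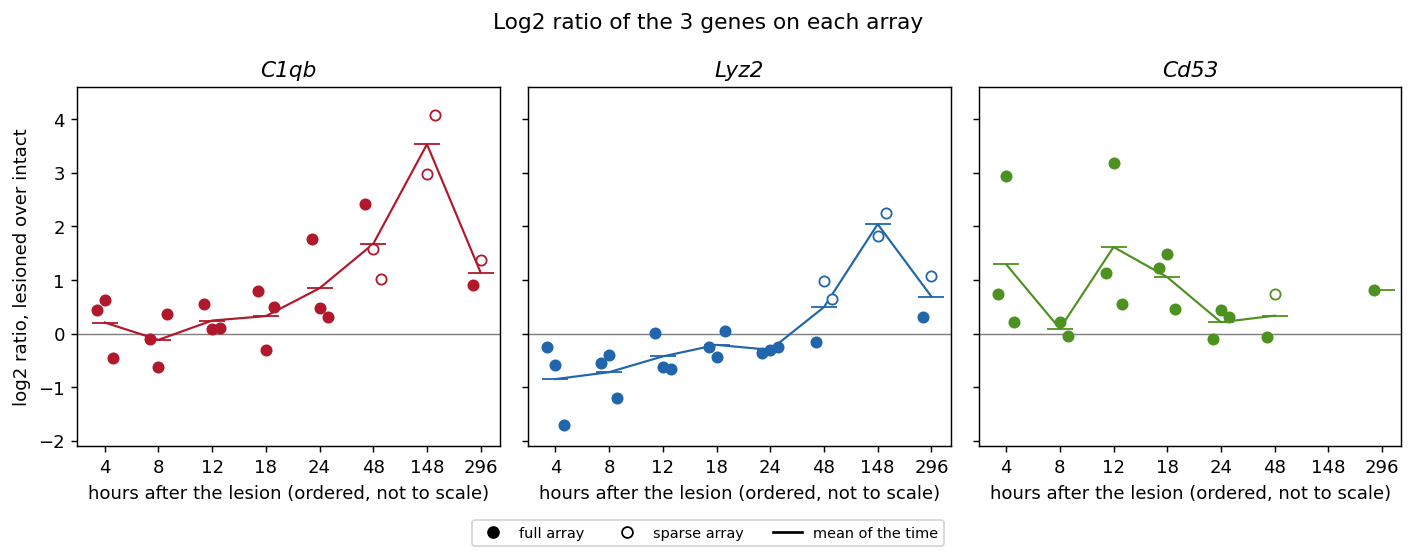
Log2 ratio of lesioned over intact ganglia (vertical axis) for C1qb, Lyz2 and Cd53 on each array, by hours after the lesion in order (horizontal axis, not to scale). Filled points are full arrays, open points sparse arrays, and the bars and line give the mean of each time. C1qb and Lyz2 are highest at 148 h, at 2.98 and 4.08 and at 1.83 and 2.26, where Cd53 has no value, and Cd53 is highest on 1 array each at 4 h (2.93) and 12 h (3.18).

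Lyz2 rose at 148 h, to 4.12 times the intact ganglia. Its 2 ratios there were 1.83 and 2.26, both above every other Lyz2 ratio of the series. The mean was 2.04 ± 0.31 (SD, n = 2; SE 0.33; limma adjusted p = 0.000243). With scaled arrays it was 1.23 and still passed (adjusted p = 0.0416). With array weights it was 2.03 and passed (limma adjusted p = 0.0184).

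At 48 h the Lyz2 ratios were -0.15, 0.98 and 0.65, and at 296 h they were 0.31 and 1.07. At both times the sparse arrays gave the higher ratios, with the full array at -0.15 at 48 h and at 0.31 at 296 h. Neither the 48 h mean of 0.49 ± 0.58 (SD, n = 3; limma adjusted p = 0.229) nor the 296 h mean of 0.69 ± 0.54 (SD, n = 2; adjusted p = 0.193) passed. What array class contributed to the late Lyz2 ratios was not tested, since no full array was run at 148 h.

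Early after the lesion Lyz2 ratios lay mostly below 0. They were -0.25, -0.59 and -1.70 at 4 h, -0.55, -0.40 and -1.21 at 8 h, and 0.02, -0.62 and -0.67 at 12 h. At 18 h they were -0.25, -0.43 and 0.06, and at 24 h they were -0.35, -0.31 and -0.25. In all, 13 of the 15 first-day arrays lay below 0, with an average of -0.50. No single mean passed: the lowest were -0.85 ± 0.75 at 4 h (SD, n = 3; limma adjusted p = 0.204) and -0.72 ± 0.43 at 8 h (SD, n = 3; adjusted p = 0.375). With array weights the 4 h mean was -0.95 and passed (adjusted p = 0.0496). No array exchanged the dyes, so a dye effect of this probe would add to all of these values, and its part was not tested.

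Cd53 passed at no time. Its ratios were 0.73, 2.93 and 0.21 at 4 h, 0.22 and -0.04 at 8 h, and 1.12, 3.18 and 0.54 at 12 h. They were 1.22, 1.48 and 0.46 at 18 h and -0.10, 0.43 and 0.30 at 24 h. Later values were -0.07 and 0.74 at 48 h and 0.81 at 296 h. Ratios above 0 were found on 12 of the 14 first-day arrays, with an average of 0.91, and the highest were on replicate 2 at 4 and at 12 h.

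The Cd53 mean was 1.29 ± 1.45 at 4 h (SD, n = 3; limma adjusted p = 0.359) and 0.47 without replicate 2. At 12 h it was 1.62 ± 1.38 (SD, n = 3; adjusted p = 0.376) and 0.83 without replicate 2, and with array weights it was 1.78 and passed (adjusted p = 0.0493). At 18 h all 3 arrays lay above 0 and the mean was 1.05 ± 0.53 (SD, n = 3; adjusted p = 0.744). The intervals of these means were wide, from 0.21 to 2.38 at 4 h and from 0.53 to 2.70 at 12 h, before adjustment. At 24 h the mean was 0.21 ± 0.27 (SD, n = 3) and at 48 h 0.33 ± 0.57 (SD, n = 2). The value at 296 h rests on 1 array and was not tested.

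Many probes passed at the late times, so counts of calls are given beside the share of all probes that passed. At 48 h 1 of the 3 genes passed as higher, C1qb, beside 7.92% of all 4471 probes tested (7.69% lower, 15.6% in either direction). At 148 h both genes with values passed as higher, beside 15.8% of 3187 probes (12.9% lower, 28.7% in either direction). None of 2 tested genes passed at 296 h, beside 4.52% higher, 4.13% lower and 8.65% in either direction of all probes. None of 3 passed at 4, 8, 12, 18 or 24 h, beside 0.538%, 0.42%, 0.139%, 0.379% and 1.42% of all probes.

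The place of each gene among all probes of an array is not changed by rescaling that array, but on a noisier array more probes can lie above a gene. C1qb was exceeded by 43 of 4077 probes on 148 h replicate 2 and by 15 of 3251 on replicate 3, or 1.05% and 0.461% of them. On the 48 h arrays 0.965%, 4.07% and 15.2% of probes were higher than C1qb, and on the 296 h arrays 3.01% and 12.6%. Lyz2 was exceeded by 4.12% of probes on each of the 2 arrays at 148 h. It was near the bottom on 4 h replicate 3, where 98.8% of probes were higher. Cd53 was among the highest probes on replicate 2 at 4 h, where 7 of 4991 were higher, and on replicate 2 at 12 h, where 8 of 5000 were. At 18 h 1.18%, 0.942% and 19.8% of probes were higher than Cd53.

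**Figure D2:**
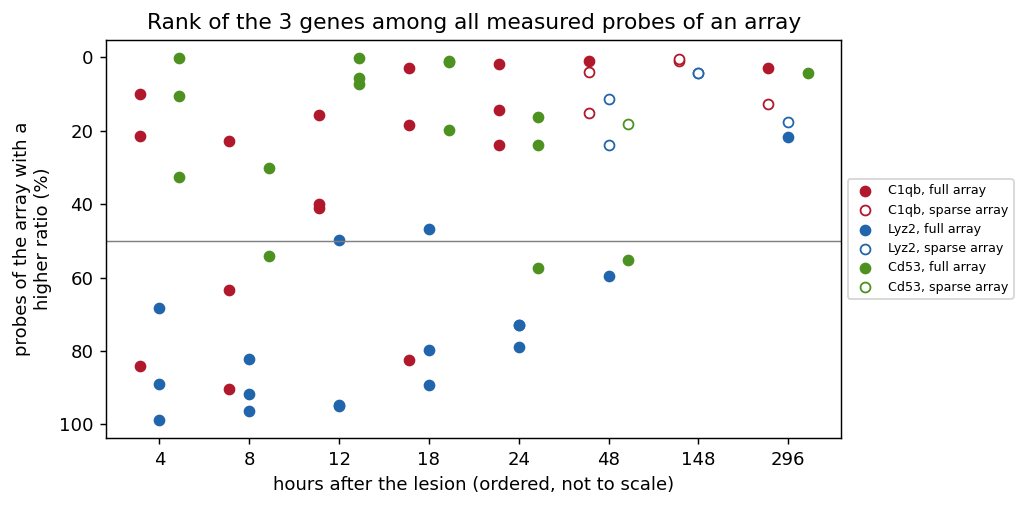
Share of the measured probes of an array with a higher ratio than each gene, in percent on an axis that runs downwards, by hours after the lesion in order. Each point is 1 array (filled, full; open, sparse), and the line marks 50%. C1qb and Lyz2 stand in the top 1.05% and 4.12% on both 148 h arrays with values, whereas Cd53 is exceeded by 0.14% and 0.16% of probes on replicate 2 at 4 and 12 h and by 5.52% to 32.6% on the other arrays of those times.

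The late times, 48, 148 and 296 h, were then set against the early times, 4, 8 and 12 h, since a constant dye effect cancels in this difference. C1qb was at 0.90 to 4.08 on the 7 late arrays, with a median of 1.58, and at -0.61 to 0.63 on the 9 early arrays, with a median of 0.10. All 7 late arrays lay above the highest early array. The fitted difference was 2.00 (SE 0.29), or 4.01-fold, and passed (limma adjusted p = 0.000478). A two-sided exact permutation test over these arrays gave p = 8.74e-05, the smallest it can give with 11440 arrangements. All early arrays were full, and of the late arrays only 48 h replicate 1 and 296 h replicate 1 were. Time and array class thus largely coincide in this contrast, and the test cannot tell them apart. Across the array the late arrays lay wholly above the early arrays for 0.772% of 2331 probes.

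Lyz2 was at -0.15 to 2.26 on the 7 late arrays, with a median of 0.98, and at -1.70 to 0.02 on the 9 early arrays, with a median of -0.59. Of the late arrays 6 lay above the highest early array, and the exception was the full array at 48 h. The difference was 1.74 (SE 0.24), or 3.34-fold (limma adjusted p = 0.000213; two-sided exact permutation p = 0.000175). Both of 2 tested genes thus passed as higher, beside 7.04% of all probes (4.25% lower, 11.3% in either direction). The F-test of equal times also passed for C1qb (limma adjusted p = 0.00596) and Lyz2 (adjusted p = 0.00625), as it did for 4.17% of 2327 probes.

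Cd53 could not be fitted in this contrast, having no value at 148 h. It averaged 0.49 ± 0.49 on 3 late arrays and 1.11 ± 1.25 on 8 early arrays (SD), and a two-sided exact permutation test gave p = 0.485. The late and early Cd53 arrays overlapped. On full arrays alone, with 2 late and 9 early arrays, the mean difference was 1.55 for C1qb and 0.74 for Lyz2, and it was -0.74 for Cd53 with 8 early arrays. No test was made of these.

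Of the 28 pairs of times, 6 passed for C1qb, 5 for Lyz2 and none of the 15 that could be tested for Cd53. For both genes 148 h stood above each of 4, 8, 12, 18 and 24 h. The C1qb differences were 3.32, 3.65, 3.29, 3.20 and 2.68 in that order of times, with limma adjusted p-values from 0.000626 to 0.00607. The Lyz2 differences were 2.89, 2.76, 2.47, 2.25 and 2.34, with adjusted p-values from 0.000615 to 0.0042. In these 5 contrasts 7.9%, 8.15%, 9.26%, 7.45% and 7.18% of all probes passed. The sixth C1qb pair was 296 h below 148 h, in which 2.22% of probes passed.

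In order of mean ratio, C1qb ran from 8 h through 4, 12, 18, 24, 296 and 48 h to 148 h. No pair of neighbors passed after adjustment over all probes. At 148 h C1qb lay 1.86 above 48 h, which did not pass (limma adjusted p = 0.0727), in a contrast that 2.27% of 3090 probes passed. The 95% confidence interval, 0.75 to 2.96, leaves out 0 but is unadjusted. Lyz2 ran from 4 h through 8, 12, 24, 18, 48 and 296 h to 148 h. Here too no neighbors passed, and 296 h minus 148 h was -1.35 (unadjusted interval -2.33 to -0.37, which also leaves out 0; adjusted p = 0.129). Cd53 ran from 8 h through 24, 48, 296, 18 and 4 h to 12 h, and no pair of times passed for it.

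Set beside one another on the same array, C1qb had the higher log2 ratio than Lyz2 on 21 of 22 arrays, by 0.88 ± 0.67 on average (SD). The exception was 8 h replicate 2, with -0.61 for C1qb and -0.40 for Lyz2. The difference averaged 0.44 at 296 h and 1.49 at 148 h, the smallest and largest of the 8 times. Lyz2 was above Cd53 on 1 of 17 arrays, 48 h replicate 2, and C1qb was above Cd53 on 8 of 17. On first-day arrays C1qb was above Cd53 on 5 of 14 and Lyz2 on 0 of 14. These are differences of ratios and not of transcript levels.

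**Figure D3:**
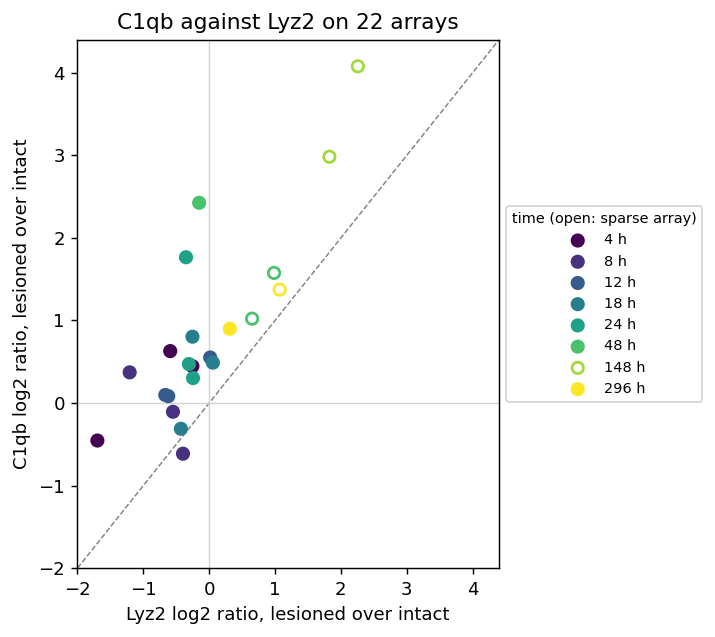
C1qb log2 ratio (vertical axis) against Lyz2 log2 ratio (horizontal axis), lesioned over intact, on the 22 arrays with both. Colors give the time, open points are sparse arrays, and the dashed line marks equal ratios. The points lie above the line on 21 arrays, and the 2 arrays at 148 h stand farthest to the upper right.

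Over the arrays, the log2 ratios of C1qb and Lyz2 had a Pearson correlation of 0.81 (22 arrays) and a correlation of 0.43 on the 17 full arrays. That of Cd53 with C1qb was -0.21 and that with Lyz2 0.01 (17 arrays each). The points share arrays, times and array class, so these are descriptions. Among 4070 probes that shared at least 18 arrays with it, C1qb was most like Pi4kb (r = 0.88, 21 arrays), a lipid kinase of the Golgi, Klf9 (0.86, 21 arrays), a transcription factor, Kif1c (0.86, 22 arrays), a kinesin motor, Abcb4 (0.85, 21 arrays), a phospholipid transporter, and Clcc1 (0.85, 18 arrays). Lyz2 ranked 18 in that order. Lyz2 was most like Lss (0.85, 21 arrays), an enzyme of sterol synthesis, Ptprn2 (0.84), Rhoq (0.84), a small GTPase, Clns1a (0.84) and Cdkn1a (0.84), a cell cycle inhibitor, with 22 arrays for each of the last 4. C1qb ranked 13 for Lyz2.

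The ranks depended on the arrays and on the correlation used. The median correlation over the compared probes was 0.046 for C1qb and 0.048 for Lyz2. On full arrays alone C1qb was most like Igbp1 (r = 0.90, 17 arrays), and Lyz2 held rank 504 of 4339 for C1qb. By Spearman correlation over all arrays Lyz2 held rank 5 of 4070 for C1qb (0.77, 22 arrays), and C1qb held rank 6.5 for Lyz2. For Cd53 the limit was set at 16 shared arrays after the missing values were known, and the most alike were Gapdhs (0.71), Ufd1 (0.69), Cftr (0.69), Or1n1 (0.67) and Pou1f1 (0.67), over 16 or 17 arrays of 4273 probes compared. Apart from C1qb and Lyz2 themselves, no gene named here for likeness was in the macrophage and myeloid list.

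That list, written from general knowledge with earlier results of these data known, held 50 genes, 23 of them on the array. Up to 24 h 0 of 23 passed. At 48 h 2 of 17 tested genes were higher and none lower, at 148 h 2 of 11 and none, at 296 h 1 of 8 and none, and in late minus early 2 of 7 and none. The median over the list was 0.16 at 48 h, -0.03 at 148 h and 0.69 at 296 h, beside 0.02, 0.04 and 0.0045 over all probes tested. Shares of all probes passing as higher were 7.92% at 48 h, 15.8% at 148 h, 4.52% at 296 h and 7.04% in late minus early, so 2 of 11 at 148 h is near the share of all probes. Over this and all other gene lists counted, 55 of 80 calls at the late times were lost without at least 1 array of their time.

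C1qb and Lyz2 supplied most of these calls. The other gene at 48 h was Laptm5, a lysosomal membrane protein of blood cells. Its ratios were 0.69, 2.01 and 4.30 (mean 2.34, 5.05-fold; limma adjusted p = 0.00444), highest on the 2 sparse arrays, and it had no value at 148 h. Without replicate 3 the Laptm5 mean was 1.35 (adjusted p = 0.049). At 296 h it was Cd48, a surface protein of leukocytes, with 0.44 and 1.29 (mean 0.86, 1.82-fold; adjusted p = 0.0269), a call that was lost without the sparse replicate 2 (0.44) and held without replicate 1 (1.29).

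Other macrophage markers did not pass. Aif1, which encodes the macrophage and microglia marker IBA1, was at 1.24 and 0.03 at 48 h and at -0.48 on each of 2 arrays at 148 h. Ptprc, which encodes the leukocyte antigen CD45, was at 0.42, 1.29 and -0.23 at 48 h, with no value at 148 h. Ctss, a protease of antigen-presenting cells, was at 0.24, -0.50 and 0.28 at 48 h and at 0.06, 0.08 and -0.38 at 148 h. Aif1, Ptprc and Ctss thus gave ratios on both sides of 0 at these times. Csf1r, Itgam and Cd14, receptors of the macrophage and myeloid list, had at most 1 value at each late time and were not tested there. Cd14 was at 1.07 at 48 h, 1.11 at 148 h and 0.12 at 296 h, Csf1r at 0.08 at 48 h and 1.88 at 296 h, and Itgam at -0.34, -0.03 and -0.26 at the 3 late times. Cx3cr1, the fractalkine receptor, averaged 0.39 at 48 h (n = 2; limma adjusted p = 0.32) and was at 0.99 on 1 array at 148 h and 0.44 on 1 at 296 h. At 148 h 7 of the 24 probes of the list had no value on any array, or 29.2%, beside 14.8% of all probes.

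**Figure D4:**
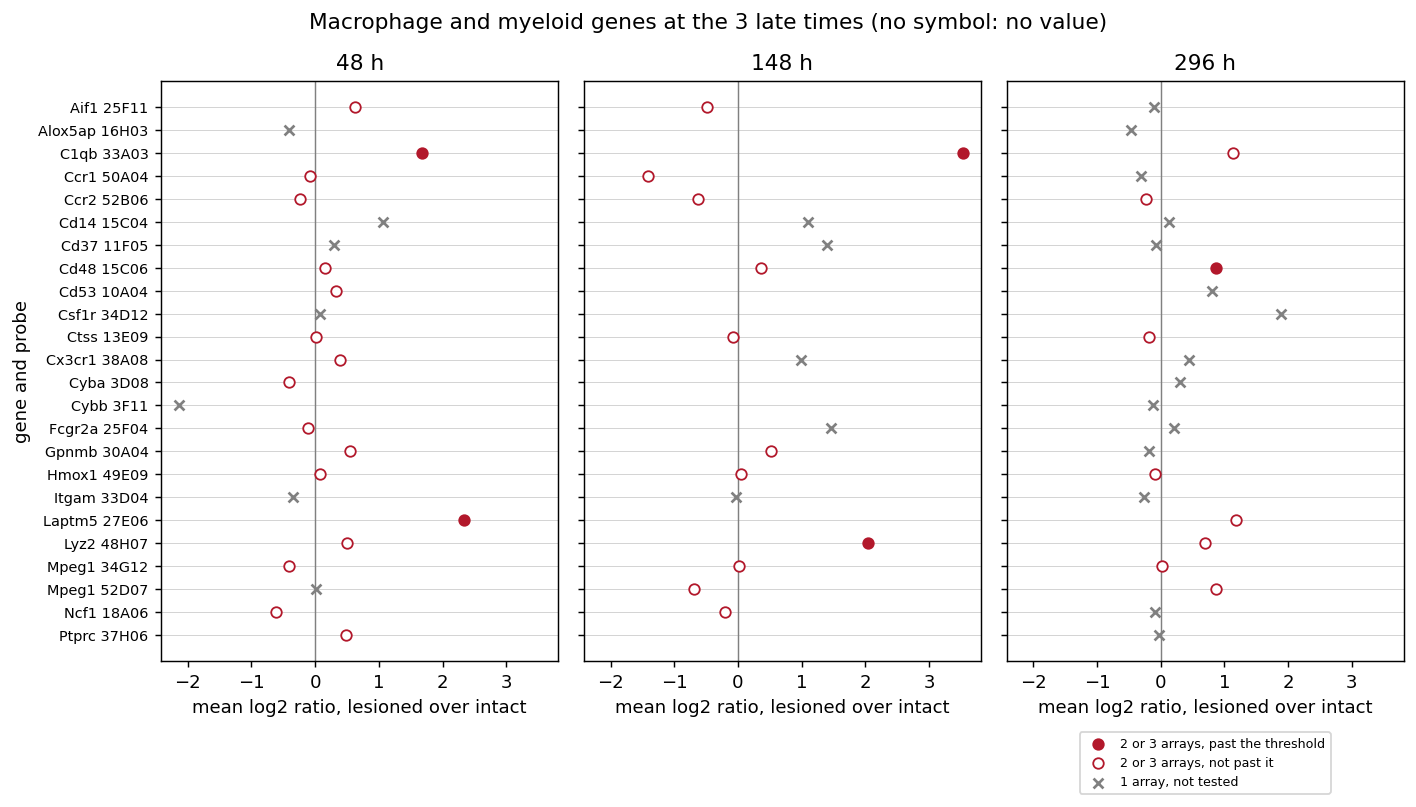
Mean log2 ratio of lesioned over intact ganglia (horizontal axis) of the macrophage and myeloid genes on the array, by gene and probe (vertical axis), at 48, 148 and 296 h. Filled circles passed the limma test, open circles did not, and crosses rest on 1 array. C1qb (1.68 and 3.53) stands out at 48 and 148 h with Laptm5 (2.34) and Lyz2 (2.04), whereas the median of the tested probes is 0.16 and -0.03. At 296 h that median is 0.69, beside 0.0045 over all probes tested.

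Complement genes, the pathway that C1q opens, had 18 of 29 list members on the array. At 148 h 5 of 11 tested genes were higher and 1 lower, with a list median of 0.94, beside 15.8% and 12.9% of all probes. Besides C1qb these were Masp2 (1.90; limma adjusted p = 0.0465), a protease of the lectin pathway, C1s (1.30; adjusted p = 0.00465), the protease that C1q activates, C3 (1.24; adjusted p = 0.0179), the central component, and C4b (1.14; adjusted p = 0.00484), a substrate of C1s. C4b was at 0.92, 1.82 and 0.68 on the 3 arrays at 148 h and below 0 on every first-day array. The Masp2 ratios at 148 h were 3.47, -1.05 and 3.28, on both sides of 0, and its call was lost without replicate 1 (1.11) or replicate 3 (1.21). C1s was at 0.66, 0.50 and 2.74, and without replicate 3 its mean was 0.58 and did not pass (adjusted p = 0.104). C3 did not pass without replicate 1 (1.08; adjusted p = 0.111), nor C4b without replicate 2 (0.80; adjusted p = 0.0641).

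C5, which forms the start of the membrane attack complex, was lower at 148 h (-1.64; limma adjusted p = 0.0479), with ratios of 0.90, -3.61 and -2.19. It lay below 0 on every other array of the series, first-day arrays included (-3.59 to -1.33). It was lower at 8 h as well (-2.84; adjusted p = 0.0399), though that call was lost without any 1 array of the time. A low C5 ratio was thus no feature of the late times, and without replicate 2 its 148 h mean was -0.65 and did not pass.

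At 48 h 4 of 16 complement genes were higher and 1 lower, with a list median of 0.02, beside 7.92% and 7.69% of all probes. Higher were C7 (2.06; limma adjusted p = 0.0147), a part of the membrane attack complex, C4bpa (1.94; adjusted p = 0.00977) and Cd46 (1.63; adjusted p = 0.00225), which both restrain complement, and C1qb. In each of these 3 genes besides C1qb 1 sparse array stood apart. C7 was at 1.82, 3.97 and 0.38 and C4bpa at 1.11, 4.24 and 0.47, and neither passed without replicate 2 (1.10 and 0.79). Cd46 was at 1.07, 0.76 and 3.05, and without replicate 3 it was 0.92 and passed (adjusted p = 0.0116). C5 was again lower (-1.90; adjusted p = 0.0385), a call lost without replicate 1 (-1.60) or replicate 3 (-1.56). At 296 h none of 12 was higher and 2 were lower, C5 (-2.96; adjusted p = 0.0221) and Clu (-0.82; adjusted p = 0.0417), beside 4.13% of all probes, and neither passed without replicate 2 (-1.94 and -0.62). In late minus early C1qb and C4b (1.02; adjusted p = 0.013) passed among 9 tested.

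Tetraspanins, the family of Cd53, had 10 of 18 list members on the array. At 48 h 4 of 9 tested were higher and none lower, beside 7.92% and 7.69% of all probes: Cd82 (1.09; limma adjusted p = 0.0333), Tspan2 (1.07; adjusted p = 0.02), Cd63 (2.00-fold; adjusted p = 0.00192), a protein of late endosomes and lysosomes, and Cd81 (0.70; adjusted p = 0.024). At 148 h Cd82 (1.32; adjusted p = 0.00673) and Cd63 (0.99; adjusted p = 0.000922) were higher and Tspan8 (-1.27; adjusted p = 9.94e-05) was lower, of 7 tested, beside 15.8% and 12.9% of all probes. Cd63 at 48 and 148 h and Tspan8 passed without any 1 array of their time. Cd82 was at 0.03, 1.93 and 1.29 at 48 h, where it did not pass without replicate 2 (0.66) or replicate 3 (0.98), and at 148 h it did not pass without replicate 3 (1.08). Tspan2 did not pass without replicate 1 (0.79), nor Cd81 without replicate 1 (0.59) or replicate 2 (0.49). None of 7 passed at 296 h. Cd37, a leukocyte tetraspanin like Cd53, had 1 value at each late time and was not tested.

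Genes of lysosomes and phagocytosis, the compartment of lysozyme's work in macrophages, had 20 of 26 members on the array. At 148 h 2 of 16 tested were higher and 2 lower, no larger a share than the 15.8% and 12.9% of all probes. Ctsh, a lysosomal protease, was at 1.85 and 3.92 at 148 h (mean 2.89, 7.39-fold; limma adjusted p = 9.19e-05) and at 0.95, 1.23 and 1.11 at 48 h (mean 1.10; adjusted p = 0.036). Its 148 h call held without either array, at 1.85 without replicate 3, and its 48 h call was lost without any 1 of the 3 arrays. Ctsl, another protease, was lower at 148 h (-1.02; adjusted p = 0.00751), though not without replicate 1 (-0.57), and it was lower at 24 h too (-1.10; adjusted p = 0.0441). Axl, a receptor for dying cells, lay below 0 on every array with a value and was not low at late times alone. It was lower at 4 h (-1.16; adjusted p = 0.0277), 8 h (-1.39; adjusted p = 0.00953) and 24 h (-1.09; adjusted p = 0.0272). It was also lower at 48 h (-1.37; adjusted p = 0.000942) and 148 h (-0.65; adjusted p = 0.0446). The Axl calls at 4 and 148 h were lost without any 1 array of their time. Its 8 h call was lost without replicate 2 or 3, and its 24 h call without replicate 1 or 3. Only the 48 h call held without any 1 array. At 48 h 2 of 19 of this list were higher and 1 lower, beside 7.92% and 7.69% of all probes.

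Signals that draw or feed macrophages had 12 of 18 list members on the array. At 48 h 1 of 10 tested was higher and 1 lower, at 148 h 1 of 5 and 1, and at 296 h 1 of 6 and 1, beside 7.92% and 7.69%, 15.8% and 12.9%, and 4.52% and 4.13% of all probes. Ccl2, the main chemokine for monocytes, has 2 probes. Probe 26C01 was higher at 8 h (1.66; limma adjusted p = 0.00953), 48 h (1.25; adjusted p = 0.00624), 148 h (1.13; adjusted p = 0.019) and 296 h (1.78; adjusted p = 0.00637). Its 8 h call was lost without replicate 2 (1.66) or replicate 3 (1.46). The 148 h and 296 h calls were lost without replicate 2 (0.83 and 0.73), and the 48 h call held without any 1 array. Probe 52C04 was higher at 8 h (0.99; adjusted p = 0.0393), a call lost without any 1 array of that time. It was lower in late minus early (-0.63; adjusted p = 0.0284), so the probes disagreed in their course. Csf1, a growth factor for macrophages, was lower at 24 h (-1.14; adjusted p = 0.0302), 48 h (-0.63; adjusted p = 0.0467), 148 h (-0.63; adjusted p = 0.0302) and 296 h (-0.87; adjusted p = 0.0422), with every late array below 0. Each late Csf1 call was lost without at least 1 array, at -0.88 to -0.42.

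Markers of other cell types that moved at 148 h, where C1qb and Lyz2 were highest, were counted in the same way, beside 15.8% of all probes higher and 12.9% lower. Of neutrophil genes, which matter since granulocytes make lysozyme, 1 of 5 tested was higher, S100a8 (1.42; limma adjusted p = 0.0295), and the list median was 0.77. Of fibroblast and matrix genes 4 of 10 were higher, led by Timp1 (2.37; adjusted p = 2.03e-06), with a median of 0.41. Of skeletal muscle genes 2 of 4 were higher, Tnnc2 (2.43; adjusted p = 0.0235) and Mb (1.63; adjusted p = 0.00535), and of red blood cell genes 1 of 4, Hba-a1 (0.41; adjusted p = 0.0358). S100a8 was at 0.37, 0.82 and 3.07, Tnnc2 at 0.53 and 4.34 and Mb at 0.65 and 2.61, each highest on replicate 3, and without that array they were 0.59, 0.53 and 0.65 and did not pass. Timp1 passed without any 1 array (2.15 to 2.68).

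Of sensory neuron genes 6 of 12 were lower at 148 h and none higher, beside 12.9% of all probes lower, with Calca (-1.67; limma adjusted p = 1.48e-05) the lowest. Of endothelial genes 2 of 5 were lower. Of mast cell genes 1 of 5 was lower, Cpa3 (-4.07; adjusted p = 0.0019), a mast cell protease, at -1.66 and -6.49, and it did not pass without replicate 3 (-1.66). The medians of these lists were -0.69, -0.50 and -0.91.

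T and NK cell genes and glial genes had calls in both directions at 148 h. Of T and NK cell genes 1 of 6 was higher, Prf1 (1.88; limma adjusted p = 0.016), the pore protein of killer cells, and 1 lower, Klrg1 (-7.71; adjusted p = 0.0112), a receptor of NK cells, with a list median of -0.63. Prf1 was at 1.08, 0.41 and 4.14 and did not pass without replicate 3 (0.75), and it had been lower at 48 h (-4.25; adjusted p = 0.000549). Klrg1 was at -3.89 and -11.52 and did not pass without replicate 3. Of Schwann cell and satellite glia genes 3 of 12 were higher, Mal (2.24; adjusted p = 0.00483), Erbb3 (0.97; adjusted p = 0.0281) and Cnp (0.60; adjusted p = 0.0242), and 2 lower, S100b by probe 52D05 (-0.75; adjusted p = 0.0111) and Mbp (-0.72; adjusted p = 0.0105), with a list median of -0.03. Each of these 5 calls was lost without at least 1 array. No gene of the B cell list was on the array. The deposited values are ratios, so no summed level of a list can be given, and the part of these cell types in the C1qb and Lyz2 ratios was not tested.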

How the data were processed

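The authors deposited 1 ratio per probe and array. The ratio has no stated direction and was taken as Cy5 (lesioned) over Cy3 (intact). Background correction and within-array normalization are not given in the sources used here. Ratios were converted to log2 without an offset. The platform annotation gave 4423 of 5088 probes 1 symbol, 2 several and 663 none, and 4375 of the gene identifiers matched the RefSeq table with unchanged symbols.

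A mean for each time was fitted over all 23 arrays with limma 3.58.1 in R 4.3.3, with 1 moderated variance per probe. Probes with at least 2 arrays at each time involved were tested two-sided, with Benjamini-Hochberg adjustment over all of them and a threshold of 0.05. SEs come from this fit and can be smaller than the spread of 1 time. The script was tested on simulated data. An earlier look at missing values set the limit of 200 for full arrays. All values of the 3 genes are given. Of each list, at most 4 members past the threshold at a late time were named, largest change first, and for likeness the 5 probes with the highest Pearson correlation. Members named beyond this, and values at early times, were chosen after they had been seen. Members and lists were chosen with earlier results of these data known.

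Alternatives were median centring, scaling of arrays, array weights, full arrays only, array class as a random block, robust variance, the arrays of 1 time alone, other filters, probes averaged per gene, a replicate block and leaving out each array. The last was extended to the gene lists after seeing the data.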

Additional observations from a re-analysis of the deposited data

Results flagged for a closer look

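The difference between late (48, 148 and 296 h) and early (4, 8 and 12 h) arrays passed its own test for both genes that could be tested, beside 7.04% of all probes higher and 11.3% in either direction. Cd53 could not be tested. It was 2.00 for C1qb and 1.74 for Lyz2 on the log2 scale, and the values on late arrays were higher on 7 of 7 and 6 of 7 arrays than on any early array. All late arrays lay above all early arrays for 0.772% of 2331 probes. The 18 and 24 h arrays were in neither group, and C1qb on 24 h replicate 1 was at 1.77, within the range of the late arrays. With scaled arrays the differences were 1.29 and 1.51.

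The C1qb ratio at 296 h minus that at 148 h was -2.40, which also passed the test of the difference, with 2 arrays at each time. All 4 arrays were above 0. No group had more than 3 arrays, so none was searched for single outlying arrays.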

How the results depend on the processing

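The 26 results of the 3 genes were refitted 863 times, and 830 of these values kept their direction and their side of the threshold. For each result 23 of the refits left out 1 array, often of another time, which leaves the mean of a time unchanged. Means that never passed also count as kept. The count is thus no measure of how firm a result is. C1qb and Lyz2 late minus early passed under all 32 alternatives that could test them, at 1.29 to 2.19 and at 1.51 to 1.87. Full arrays only, the arrays of 1 time alone and the filter for every array of a time could not test this difference. On full arrays alone it was 1.55 for C1qb and 0.74 for Lyz2, without a test.

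C1qb at 48 h was 1.13 with scaled arrays (adjusted p = 0.0836) and 1.68 with only the arrays of its time (adjusted p = 0.197). With only the arrays of that time, neither C1qb at 148 h (3.53; adjusted p = 0.161) nor Lyz2 at 148 h (2.04; adjusted p = 0.179) passed. Each such fit had 2 or 3 arrays. C1qb 296 h minus 148 h was -1.16 with scaling, -2.37 with array weights and -2.40 with robust variance (adjusted p = 0.0539), and -2.94 to -1.85 when an array was left out, with 16 of 23 such fits not past the threshold. Of these arrays 148 h replicate 3 moved it most among those that ended the call (-1.85). Array weights brought Lyz2 at 4 h (-0.95) and Cd53 at 12 h (1.78) past the threshold. Leaving out an array gave ranges of -0.0039 to 0.54 for C1qb at 4 h, -0.36 to 0.13 for C1qb at 8 h, -0.039 to 0.22 for Cd53 at 8 h and -0.069 to 0.74 for Cd53 at 48 h, none of which passed. The cause of these shifts was not tested.

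With the replicate block, means that did not pass turned sign: C1qb at 8 h to 0.25, Cd53 at 8 h to -0.31, at 24 h to -0.053 and at 48 h to -0.20. It changed no call of the 3 genes. Deviations of the 77 same-numbered pairs of arrays had a median correlation of -0.0064 and 4 were over 0.1. For the 154 pairs with different numbers the median was 0.0040 and 7 were over 0.1. Whether arrays with the same number share animals or intact RNA is not given, and these correlations cannot decide it.

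Counts of probes past the threshold depended on the setting. At 48 h they were 698, but 132 with scaling and 177 with array weights. At 148 h they were 916, 210 and 279, at 296 h 245, 67 and 3, and in late minus early 263, 48 and 116. At 4, 8, 12, 18 and 24 h they were 27, 21, 7, 19 and 71, 85, 60, 108, 136 and 217 with scaling, and 93, 63, 181, 104 and 310 with array weights. With the replicate block they were 411 at 48 h and 83 at 296 h. Of the macrophage and myeloid list 1 gene was higher at 48 h and 0 at 296 h with scaling or array weights, against 2 and 1. With only the arrays of 1 time the counts of probes were 0, 0, 0, 3 and 3 at 4 to 24 h, 1 at 48 h and 0 at 148 and 296 h. Leaving out 1 array gave 3 to 25 at 8 h, 14 to 121 at 24 h, 557 to 768 at 48 h, 858 to 1016 at 148 h, 5 to 573 at 296 h and 132 to 459 in late minus early. The counts of 5 and 132 were without 296 h replicate 2, and those of 573 and 459 without replicate 1. Full arrays only gave 125, 48, 22, 61 and 241 at 4 to 24 h and no test at 48, 148 or 296 h. The spread of the sparse arrays, the 2 arrays at 296 h and the lack of intensities limit the late values.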
